A study of Mus musculus with 9 samples.

Results

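Klf6 and Mnt are a pair of transcription factor genes, 2 of the 99 genes in the expression table analysed here, and they were chosen because each appeared to be raised at a different step between the groups of the study. Their levels in those groups are therefore given as a description, with errors and without a test. RNA was measured in mouse bone marrow cells sorted for c-Kit, the stem cell factor receptor carried by blood stem and progenitor cells, in 3 libraries for each of 3 groups labelled WT, NC and NPC. By the series' text, the study compared controls with mice that develop chronic myelomonocytic leukaemia (CMML), and with CMML mice in which Piezo1, the gene of a mechanically gated cation channel, is conditionally knocked out. The labels do not spell out the codes. By their letters, WT is read as control, NC as CMML, and NPC as CMML plus loss of Piezo1. The alleles behind the leukaemia, the Cre line, the age of the mice and the animals behind each library are not stated in the labels, so p-values measure the spread between libraries, which may be technical.

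Klf6 is a zinc-finger factor of the Kruppel-like family that binds GC-rich promoter sequence. It is known as an immediate-early gene, switched on soon after cells are stimulated, and it takes part in inflammatory activation of macrophages. Mnt is a basic helix-loop-helix leucine zipper protein that pairs with Max, binds the E-box CACGTG and recruits Sin3 corepressors. Myc pairs with the same partner and activates genes through the same E-box, so Mnt and Myc compete for partner and site. Mnt is made in most cell types, whereas Myc follows growth signals.

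On GRCm39, as the table gives it, Klf6 (ENSMUSG00000000078) lies on the plus strand of chromosome 13 from 5911481 to 5920393. The table lists 3 transcripts for it, of protein-coding, nonsense-mediated decay and retained-intron type. Mnt (ENSMUSG00000000282) lies on the plus strand of chromosome 11 from 74721746 to 74736551, with 2 transcripts, protein-coding and with a retained intron. Values are per gene, so the coding transcripts cannot be told apart from the others. No other gene of the GRCm38 reference annotation overlapped either locus.

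The promoters of both genes hold the E-box that Mnt-Max and Myc-Max dimers bind, a feature that played no part in choosing the pair. The 250 bases before the annotated start of each gene are shown 5′ to 3′ with that E-box, CACGTG, in capitals. They come from RefSeq on GRCm38.p6, plus strand, at chr13:5861239-5861488 for Klf6 and chr11:74830674-74830923 for Mnt.
Klf6: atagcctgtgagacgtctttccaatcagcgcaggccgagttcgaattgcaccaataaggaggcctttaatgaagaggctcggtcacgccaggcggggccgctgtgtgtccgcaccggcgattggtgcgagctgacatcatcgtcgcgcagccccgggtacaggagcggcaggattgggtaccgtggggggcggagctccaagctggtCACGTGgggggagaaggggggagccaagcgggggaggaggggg
Mnt: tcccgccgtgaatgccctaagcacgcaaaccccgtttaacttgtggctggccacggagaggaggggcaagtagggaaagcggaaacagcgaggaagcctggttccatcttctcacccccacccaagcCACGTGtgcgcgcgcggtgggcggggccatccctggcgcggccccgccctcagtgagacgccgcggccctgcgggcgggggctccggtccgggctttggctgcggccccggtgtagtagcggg

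Each window held a single CACGTG, whose first base lay at position -43 from the start in Klf6 and at -123 in Mnt. Of 32851 mouse promoter windows of the same length, 6.02% held it. Among the 50 tested genes with a matched promoter, 22.0% held it, both members included. The first share is per window, whereas the second counts a gene if any window of its symbol held the E-box. The GC box GGGCGG, a site type of Sp and Kruppel-like factors, was found once in Klf6 and 3 times in Mnt on either strand, and in 32.7% of all windows. The CCAAT box occurred 4 times in Klf6 and not in Mnt, against 33.8% of all windows with at least 1. Neither window held TATAAA (12.4% of all windows) or the cAMP response element TGACGTCA (1.55%). The windows were GC-rich, at 64.8% in Klf6 and 70.0% in Mnt, where the median over all windows was 52.4%. A match describes the letters and does not show that a factor binds there.

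Levels are in FPKM, fragments scaled to transcript length and to the mapped total of the library. The implied depth of the libraries was 76607410 to 88417513 counts, a ratio of 1.15 between the deepest and the shallowest. Klf6 had 13699 to 20958 estimated counts per library and Mnt 3234 to 4347. Of the 99 genes, 62 reached 1 FPKM in at least 3 libraries and were tested, with both members among them. The c-Kit gene and the 8 other stem and progenitor markers listed, and Piezo1, were not analysed here, so neither the sort nor the knockout could be checked. Markers of other blood cells were few in the table. Lck, 1 of 10 T and NK cell markers, lay at 2.96 to 3.52 FPKM in WT, 4.41 to 4.91 in NC and 4.82 to 6.00 in NPC. The summed level of 2 of 11 granulocyte markers lay at 77.2 to 79.2 FPKM in WT, 81.7 to 89.5 in NC and 85.8 to 91.9 in NPC, but the 2 genes went opposite ways. Itgb2l rose by 0.37 ± 0.04 from WT to NC (log2 fold change ± SE; edgeR adjusted p = 3.92e-10). Slfn4, of a family of similar genes, fell by 0.11 (log2 scale, SE 0.04; edgeR adjusted p = 0.0229), a fall that did not pass with WT replicate 2 (-0.099) or NC replicate 2 (-0.078) left out, in limma, or with NC replicates 2 and 3 averaged. Clec10a, 1 of 8 monocyte and macrophage markers, lay at 0.865 to 1.22 FPKM in WT, 1.11 to 1.32 in NC and 1.17 to 1.65 in NPC. It rose by 0.45 ± 0.17 from WT to NPC (log2 fold change ± SE; edgeR adjusted p = 0.0204). This rise did not pass with WT replicate 2 (0.35), WT replicate 3 (0.38) or NPC replicate 3 (0.28) left out. Alox12, 1 of 6 megakaryocyte markers, was below the expression minimum at 0.394 to 0.469 FPKM in WT, 0.231 to 0.256 in NC and 0.227 to 0.284 in NPC, so WT lay above both other groups. The part of cell composition in the levels that follow was not tested, and in sorted bulk RNA fewer cells of a type and less RNA per cell cannot be told apart.

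Klf6 was higher in NC than in WT and lay at much the same level in NPC as in NC. Its level was 40.7, 42.2 and 43.0 FPKM in WT (replicates 1 to 3), against 53.2, 51.4 and 52.3 for NC and 54.0, 52.8 and 49.2 for NPC. All 3 WT libraries lay below every NC and NPC library, with 8.47 FPKM between the highest WT and the lowest NC library. The NC and NPC libraries overlapped, since NPC held both the highest and the lowest of these 6 values. Group levels were 42.0 ± 1.13 FPKM in WT, 52.3 ± 0.905 in NC and 52.0 ± 2.52 in NPC (mean ± SD, n = 3 each). In order, NPC and NC do not differ beyond their spread and WT lies below both.

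For Klf6 the log2 fold change from WT to NC was 0.32 ± 0.04 (SE; 95% interval 0.24 to 0.39), a level 1.25 times that of WT. From NC to NPC it was -0.0085 ± 0.04 (-0.084 to 0.067). The sign of this small value is not settled, and it was positive with TMM factors, with median of ratios size factors, and without NC replicate 1 or NPC replicate 3. NPC against WT gave 0.31 ± 0.04, so the NC level accounted for 103% of the log2 difference between WT and NPC. The WT-to-NC step exceeded the NC-to-NPC step by 0.33 ± 0.06 (SE; 0.20 to 0.46). These comparisons share the NC libraries, so a high or low NC value moves both steps in opposite directions.

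Mnt was higher in NPC than in NC and WT, which lay close together. Its level was 9.12, 8.88 and 9.25 FPKM in WT (replicates 1 to 3), against 9.48, 9.47 and 9.25 for NC and 10.6, 10.4 and 10.5 for NPC. The NPC libraries lay above all the others, by 0.875 FPKM between the highest NC and the lowest NPC library. WT and NC were parted only by 0.0022 FPKM, between WT replicate 3 at 9.253 and NC replicate 3 at 9.255, and with so small a gap their order is not settled. Group levels were 9.09 ± 0.187 FPKM in WT, 9.40 ± 0.127 in NC and 10.5 ± 0.135 in NPC (mean ± SD, n = 3 each).

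For Mnt the log2 fold change from WT to NC was 0.05 ± 0.05 (SE; 95% interval -0.047 to 0.15). It was 0.0080 with summed counts as library size. From NC to NPC it was 0.16 ± 0.05 (0.065 to 0.26), a level 1.12 times that of NC, and NPC against WT gave 0.21 ± 0.05 (0.11 to 0.31). The NC level accounted for 23.4% of the log2 difference between WT and NPC. This share is uncertain, since the interval of the WT-to-NC value includes 0. The WT-to-NC step minus the NC-to-NPC step was -0.11 ± 0.08 (SE; -0.28 to 0.055). It was -0.15 ± 0.07 both with median of ratios size factors and with summed counts as library size. With NC replicates 2 and 3 averaged it was -0.11 ± 0.11, and without NC replicate 3 it was -0.089 ± 0.11. In each of these fits the larger estimated step was from NC to NPC.

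**Figure D1:**
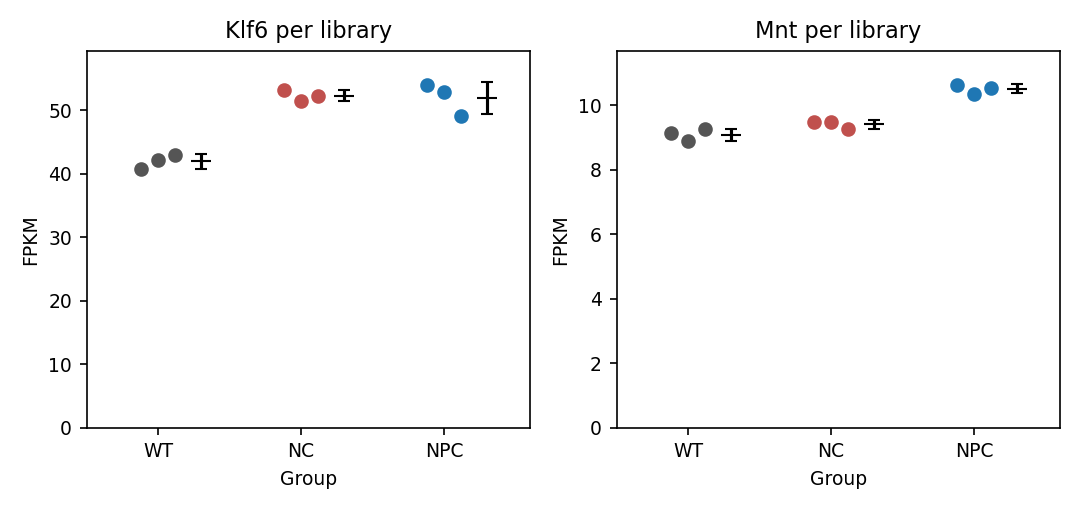
Expression of Klf6 (left) and Mnt (right) in FPKM in each library, with groups WT, NC and NPC on the x axis; coloured points are libraries, and the black bar and whiskers beside them are the group mean ± SD (n = 3). Klf6 lies near 42.0 FPKM in WT and near 52 FPKM in both NC and NPC, while Mnt lies at 8.88 to 9.48 FPKM in WT and NC and at 10.4 to 10.6 FPKM in NPC.

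**Figure D2:**
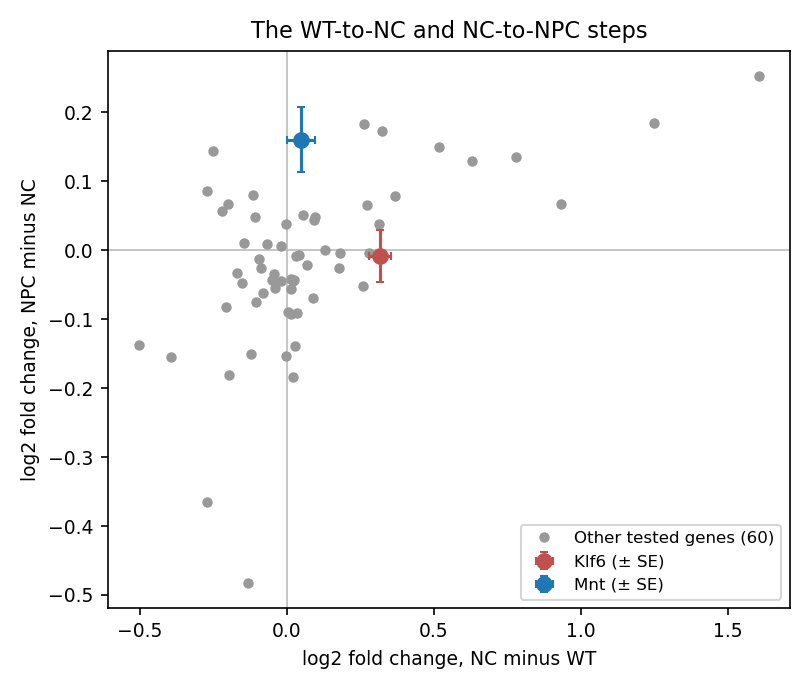
Log2 fold change from WT to NC (x axis) against that from NC to NPC (y axis) for the 62 tested genes; coloured points are Klf6 and Mnt with SE bars and grey points the other genes. Klf6 lies to the right on the zero line of the y axis and Mnt above it near zero on the x axis; the NC libraries enter both axes.

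Counted by libraries, both genes were higher in all NC than in all WT libraries, as were 27.4% of the 62 tested genes. For Mnt that gap was only 0.0022 FPKM, so the order of its WT and NC libraries is not settled. From NC to NPC the groups were apart, with NPC higher, for Mnt and not for Klf6, and for 11.3% of tested genes. From WT to NPC they were apart for both, and for 29.0% of tested genes. The pair was chosen on these contrasts, so nothing is read from these counts. Among the 62 genes, Klf6 had the 9th highest log2 fold change from WT to NC and the 30th highest from NC to NPC. Mnt had the 23rd highest from WT to NC and the 5th highest from NC to NPC. The median over all tested genes was 0.015 for WT to NC and -0.011 for NC to NPC.

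The spread between libraries differed between the members. The coefficient of variation of Klf6 was 2.70% in WT, 1.73% in NC and 4.84% in NPC, where replicate 3 was lowest. Counting alone would give 1.64%, 1.43% and 1.45% if 4 deposited counts stand for 1 fragment. For Mnt it was 2.06% in WT, 1.36% in NC and 1.28% in NPC, below the counting values of 3.43%, 3.28% and 3.13% on that scale. With every deposited count taken as a fragment, the counting values for Mnt were 1.72%, 1.64% and 1.57%. The spread of Mnt was thus below counting error on the first scale and near it on the second. The pooled SD of log2(FPKM) between libraries of a group was 0.049 for Klf6 and 0.023 for Mnt.

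Klf6 was the more abundant of the pair. Its mean FPKM over the 9 libraries, 48.8, was the 7th highest of the 62 tested genes, and that of Mnt, 9.66, the 35th (median gene 12.2). The ratio of Klf6 to Mnt FPKM needs no scaling between libraries, since both come from the same library. It was 4.46, 4.75 and 4.64 in WT (replicates 1 to 3), against 5.61, 5.43 and 5.65 for NC and 5.08, 5.10 and 4.66 for NPC. The NC libraries lay above all others. The WT and NPC libraries overlapped, because NPC replicate 3 lay within the WT range. Group ratios were 4.62 ± 0.144 in WT, 5.56 ± 0.116 in NC and 4.95 ± 0.247 in NPC (mean ± SD, n = 3 each). The ratio restates the levels on which the pair was chosen, so nothing is read from the order of its groups.

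**Figure D3:**
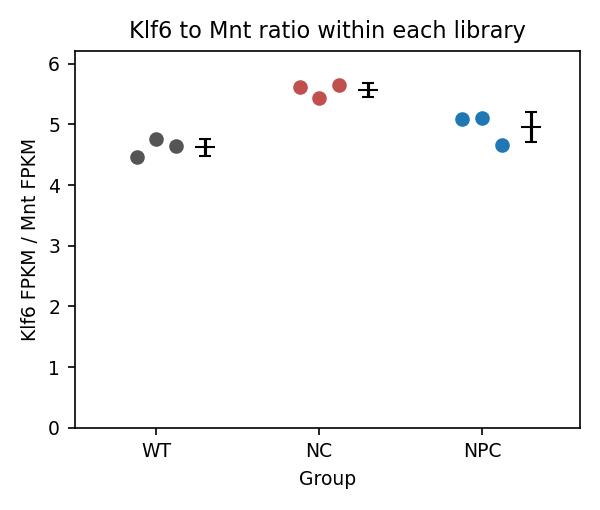
Ratio of Klf6 FPKM to Mnt FPKM within each library, by group; coloured points are libraries, and the black bar and whiskers are the group mean ± SD (n = 3). The ratio is 4.46 to 4.75 in WT, 5.43 to 5.65 in NC and 4.66 to 5.10 in NPC.

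Genes with the most similar profiles were taken from the 62 tested genes. By Pearson correlation of log2(FPKM + 1) over the 9 libraries, the genes closest to Klf6 were Mx1, an interferon-induced GTPase (r = 0.957), Itgb2, the leukocyte integrin beta chain CD18 (0.954), Itgb2l, a related integrin gene (0.949), and Gm2a, the lysosomal GM2 activator (0.948). Those closest to Mnt were Hk2, hexokinase 2 of glycolysis (r = 0.856), Dazap2 (0.796), Lck, a T-cell kinase (0.779), and Itgb2 (0.773). Klf6 and Mnt themselves had r = 0.629. Mx1 has a close relative, Mx2, and how shared reads were counted is not stated, so its level is uncertain to that extent. The 9 points share 3 groups, so such correlations mostly follow the group means.

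In size as well as shape, the gene nearest to Klf6 was Septin1, a cytoskeletal GTPase, at 22.0, 27.4 and 28.1 FPKM in WT, NC and NPC. Its 3 group means on the log2(FPKM + 1) scale, each relative to WT, differed from those of Klf6 by 0.022 (root mean square). Itgb2 followed at a distance of 0.030, Itgb2l at 0.082 and Acvrl1 at 0.088. For Mnt, Dazap2 was nearest at 0.040, with 119.5, 127.6 and 132.0 FPKM in WT, NC and NPC. Tspan32, a tetraspanin, followed at 0.044, Cdc45 at 0.050 and Gnai3 at 0.059. Dazap2 differs in shape from Mnt, with a log2 fold change of 0.095 from WT to NC and 0.049 from NC to NPC. The values at these steps were 0.093 and 0.043 for Tspan32, 0.055 and 0.052 for Cdc45, and 0.13 and 0.0011 for Gnai3. In none of these genes was the estimated NC-to-NPC value the larger, as it was in Mnt.

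Mnt was the only gene of the 17 listed in the Myc-Max-Mxd network that the table held, so Myc, Max and the Mxd genes were not analysed here. Of 92 genes listed as Myc-responsive, 6 were in the table and all 6 were tested. From WT to NC, 1 rose (Hk2) and 3 fell (Tbrg4, Hnrnpd and Cox5a), where 27.4% of all tested genes rose and 24.2% fell. From NC to NPC, the step at which Mnt was higher, Hk2 alone rose and none fell (0 fell at an unadjusted p under 0.05 in edgeR, DESeq2 or limma), where 6.45% of tested genes rose and 8.06% fell. From WT to NPC, Hk2 and Cdc45 rose and Tbrg4 and Hnrnpd fell, where 33.9% rose and 30.6% fell. The median log2 fold change of the 6 genes was -0.038, 0.060 and -0.0015 in these 3 comparisons, against 0.015, -0.011 and -0.039 over all tested genes.

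Hk2, the first enzyme of glycolysis and a gene that Myc can activate, had 10.2, 10.2 and 10.3 FPKM in WT (replicates 1 to 3), against 13.2, 12.6 and 12.7 for NC and 13.9, 15.1 and 14.5 for NPC. Its groups did not overlap at either step. It rose by 0.33 ± 0.04 from WT to NC (log2 fold change ± SE; edgeR adjusted p = 3.09e-08) and by 0.17 ± 0.04 from NC to NPC (edgeR adjusted p = 0.00822). Hk2 thus rose at both steps, and a link to either member was not tested.

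Tbrg4, a mitochondrial RNA-binding protein gene, had 34.1, 35.9 and 35.0 FPKM in WT (replicates 1 to 3), against 31.4, 29.4 and 30.7 for NC and 32.2, 30.0 and 33.6 for NPC. It fell by 0.20 from WT to NC on the log2 scale (SE 0.04; edgeR adjusted p = 8.61e-05) and had a log2 fold change of 0.067 ± 0.04 from NC to NPC (edgeR adjusted p = 0.288). Hnrnpd, which encodes the RNA-binding protein AUF1, fell by 0.14 from WT to NC (log2 scale, SE 0.04; edgeR adjusted p = 0.00105), and its NC-to-NPC value was 0.011 ± 0.04. Cox5a, which encodes part of cytochrome c oxidase, fell by 0.12 from WT to NC (log2 scale, SE 0.05; edgeR adjusted p = 0.0339). Cox5a did not pass with WT replicate 1 (-0.083) or 2 (-0.099) left out, nor with replicate 2 of NC (-0.074) or of NPC (-0.12) left out, with NC replicates 2 and 3 averaged (-0.10), nor with TMM factors, with limma at either pseudocount or at a minimum of 5 FPKM. None of these 3 genes passed from NC to NPC. From WT to NPC, where both members were higher, Tbrg4 had -0.13 ± 0.04 (edgeR adjusted p = 0.0055). Hnrnpd had -0.13 ± 0.04 in that comparison (edgeR adjusted p = 0.00195). Cox5a did not pass there (-0.037 ± 0.05, edgeR adjusted p = 0.492). The Tbrg4 value from WT to NPC did not pass without NPC replicate 2 (-0.089). A link of these genes to either member was not tested.

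Neither of the 2 cell-cycle genes of the list passed at either step, and Cdc45 passed from WT to NPC. Ccnd2, which encodes cyclin D2 and is a direct target of Myc, had 11.6 to 12.5 FPKM in WT, 12.1 to 12.5 in NC and 12.1 to 12.4 in NPC. Its log2 fold change was 0.041 ± 0.04 from WT to NC (edgeR adjusted p = 0.388) and -0.0074 ± 0.04 from NC to NPC (edgeR adjusted p = 0.917). Cdc45, a DNA replication helicase gene, had 0.055 ± 0.04 and 0.052 ± 0.04 at these steps and rose by 0.11 ± 0.04 from WT to NPC (log2 fold change ± SE; edgeR adjusted p = 0.03). That rise did not pass if WT replicate 1 (0.066), WT replicate 3 (0.11) or NPC replicate 3 (0.071) was left out, in limma at either pseudocount, or with summed counts as library size.

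**Figure D4:**
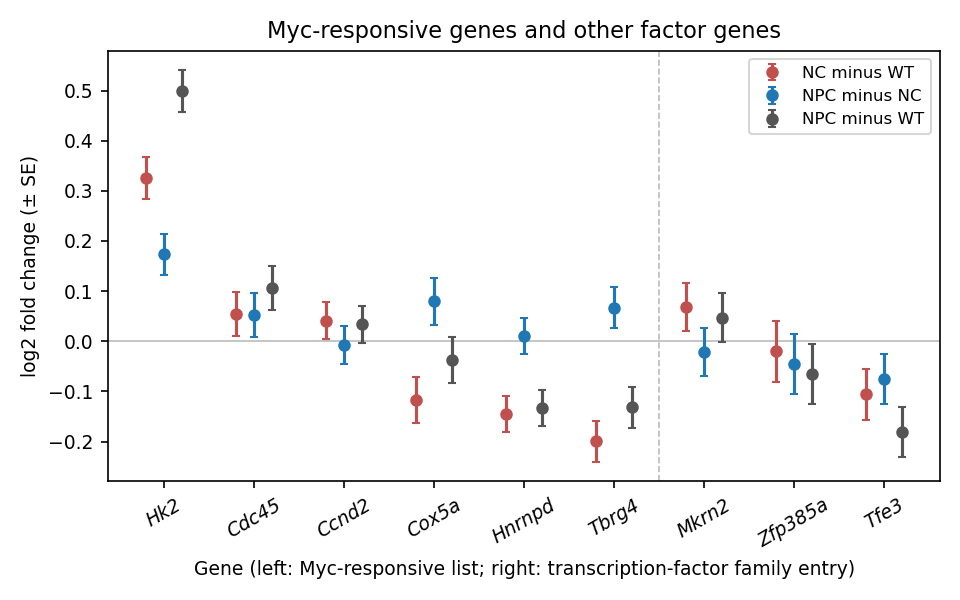
Log2 fold change ± SE of the 6 Myc-responsive genes (left of the dashed line) and of the 3 other tested genes with a transcription-factor family entry (right), for NC minus WT, NPC minus NC and NPC minus WT. Hk2 is above 0 in all comparisons, Tbrg4 and Hnrnpd are at -0.20 and -0.14 for NC minus WT, and Tfe3 is at -0.18 for NPC minus WT.

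The E-box found in both members' promoters was also counted over the table. Of 62 tested genes, 50 had a promoter matched by symbol, and 11 of these (22.0%) held CACGTG, both members included. The 6.02% of all mouse windows covers genes whatever their expression and was not matched to the tested genes. Among the 9 others with the E-box, 3 rose and 2 fell from WT to NC. Among the 39 without it, 8 rose and 12 fell. Of all tested genes, 27.4% rose and 24.2% fell at this step. From NC to NPC, where Mnt was higher, 0 of the 9 genes passed in edgeR, DESeq2 or limma (median log2 fold change -0.055 in edgeR). At an unadjusted p under 0.05, 1 was lower in edgeR, namely Trim25, which was named after its value was seen. Of the 39, 2 rose and 5 fell (median -0.025). Of all tested genes, 6.45% rose and 8.06% fell at that step. From WT to NPC, 3 of the 9 rose and 4 fell, and 10 of the 39 rose and 14 fell. There 33.9% of all tested genes rose and 30.6% fell. With 9 genes, nothing is read from these counts.

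The table held few other genes with a transcription-factor family entry at a measurable level. It gives a transcription-factor family for 11 genes, of which 5 were tested. Besides Klf6 (C2H2 zinc finger) and Mnt (basic helix-loop-helix) these were Tfe3, Zfp385a and Mkrn2, the last named after its values were seen. Mkrn2 has a family entry but was not on the list of sequence-specific transcription factors used here. None of these 3 passed from WT to NC or from NC to NPC in edgeR, DESeq2 or limma, where 27.4% of tested genes rose and 24.2% fell at the first step and 6.45% and 8.06% at the second in edgeR. In edgeR at an unadjusted p under 0.05 Tfe3 alone passed, from WT to NC. Tfe3, which binds E-box-type sites at lysosomal and autophagy genes and shares the helix-loop-helix zipper class with Mnt, had 5.05, 4.82 and 5.11 FPKM in WT replicates 1 to 3. It had 4.88, 4.55 and 4.48 in NC and 4.53, 4.20 and 4.47 in NPC. It fell by 0.18 from WT to NPC (log2 scale, SE 0.05; edgeR adjusted p = 0.00261), opposite in sign to Mnt. At WT to NC the value was -0.11 ± 0.05 (edgeR adjusted p = 0.0781), and it passed without NC replicate 1 (-0.14) or NPC replicate 2 (-0.11). Zfp385a, a p53-linked zinc-finger gene, lay at -0.020 ± 0.06 and -0.045 ± 0.06, and Mkrn2 at 0.068 ± 0.05 and -0.021 ± 0.05, from WT to NC and from NC to NPC. The other 6, namely Tbx2, Tbx4, Lhx2, Bcl6b, Pparg and Sox9, lay below the expression minimum.

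Klf6 was the only one of 26 immediate-early genes and of 26 Kruppel-like and Sp family genes listed that the table held. Of 10 genes listed for promoter activation by Klf6 in published work, Acvrl1 and Cdh1 were in the table. Acvrl1, a TGF-beta family type I receptor gene, had 2.07, 2.37 and 2.13 FPKM in WT (replicates 1 to 3), against 2.63, 2.88 and 2.49 for NC and 2.59, 2.62 and 2.77 for NPC. It rose by 0.28 ± 0.09 from WT to NC (log2 fold change ± SE; edgeR adjusted p = 0.0134) and had -0.0034 ± 0.09 from NC to NPC (edgeR adjusted p = 0.975). With WT replicate 1 left out (0.24) or NC replicate 2 left out (0.22), the rise did not pass. From WT to NC 27.4% of all tested genes rose, so this 1 tested list gene gives no measure of Klf6 activity. Cdh1, which encodes E-cadherin, was below the minimum at 0.474 ± 0.0603 FPKM in WT and 0.671 ± 0.130 in NC (mean ± SD, n = 3 each).

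The larger estimated step of each member stayed the same under every setting tried, and all settings drew on the same 9 libraries. For Mnt the interval of the difference of steps included 0 (-0.28 to 0.055). Over 21 alternatives, which leave out a library or change the scaling, filter, unit or tool, the WT-to-NC value of Klf6 lay between 0.28 and 0.33 on the log2 scale and its NC-to-NPC value between -0.036 and 0.030. For Mnt these ranges were 0.0080 to 0.062 and 0.15 to 0.19.

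**Figure D5:**
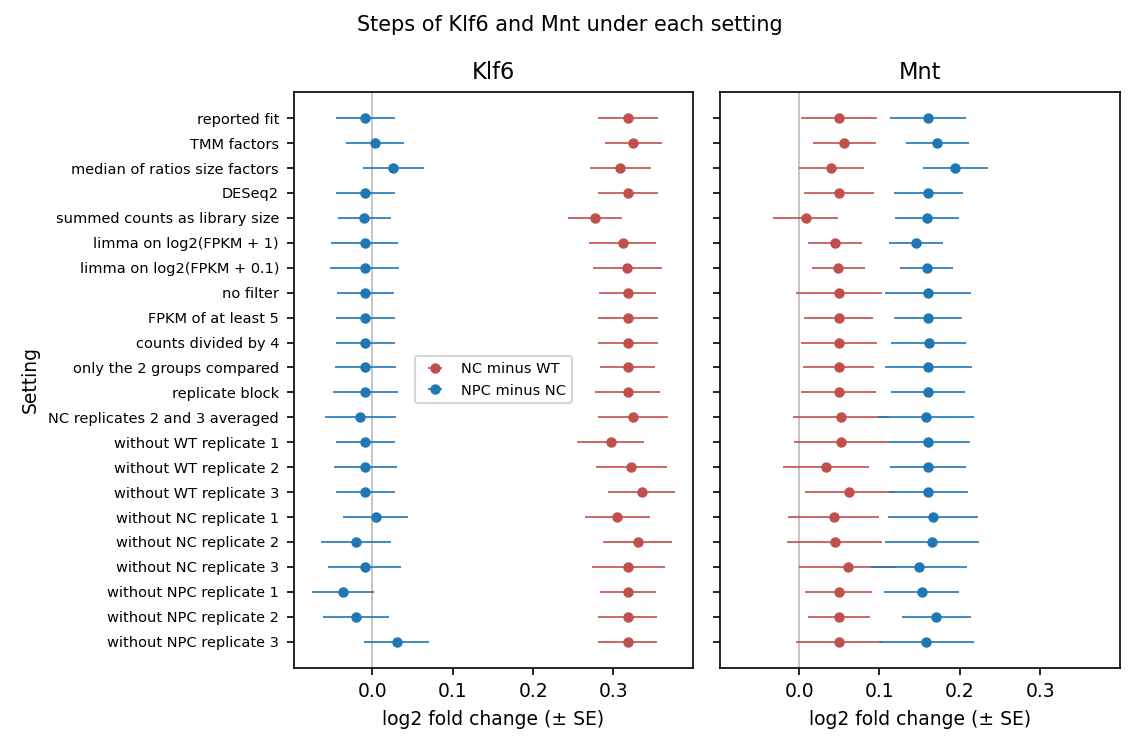
Log2 fold change ± SE of Klf6 (left) and Mnt (right) for NC minus WT and NPC minus NC, with the reported fit on the top line and each alternative setting on a line below. In Klf6 the NC minus WT points stand at 0.28 to 0.33, apart from NPC minus NC at -0.036 to 0.030; in Mnt the NPC minus NC points stand at 0.15 to 0.19, above NC minus WT at 0.0080 to 0.062 with bars that meet under some settings.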

How the data were processed

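Poly(A) RNA of c-Kit+ bone marrow cells was made into strand-marked, paired-end libraries, per the labels' protocols. The submitters' processing notes name cutadapt 1.9, HISAT2 2.2.1, StringTie 2.1.6, DESeq2, edgeR and GRCm39 without role or order; annotation, strand setting and filters are not stated there. The authors deposited FPKM per gene and library and, in the same table, a raw estimated count. These counts are whole, but of 891 values 14 equal 4, 0 equal 1 and 2 lie at 2 or 3, so 1 fragment is taken as about 4 counts, an uncertain scale.

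The table held 99 genes, about 0.514% of a library, so depth was taken from the ratio of count to FPKM in 61 genes with at least 200 counts per library; the fitted ratio held within 1% for 100% of values. Absolute scale came from 5 single-transcript genes. The edgeR 4.0.16 (R 4.3.3) quasi-likelihood test was fitted to the deposited estimated counts of all 9 libraries, with that depth as library size, for genes of at least 1 FPKM in at least 3 libraries (62). P-values were two-sided with Benjamini-Hochberg adjustment over the 62 genes, threshold 0.05. The fit was tested on simulated data. SE is the fold change over the root of F. Intervals and counting values cover no PCR duplication.

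The members and gene lists were chosen with earlier results of these data known. Genes named were the members, the 4 most similar genes by each of 2 measures, and list members in the table. Same-numbered libraries did not deviate together, so replicate numbers were not treated as pairs. Alternatives used limma 3.58.1, DESeq2 1.42.0, other scalings, filters and left-out libraries. Motifs were searched on both strands of the 250 bases before RefSeq starts. Figures used matplotlib 3.10.9.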

Additional observations from a re-analysis of the deposited data

How the results depend on the processing

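Over 21 alternatives, the values of Klf6 moved by less than the spread between its libraries (SD 0.049 on the log2 scale). Leaving out each library gave 0.30 to 0.33 for Klf6 from WT to NC, -0.036 to 0.030 from NC to NPC, 0.28 to 0.35 from WT to NPC, and 0.29 to 0.35 for the difference of its steps. For Mnt (SD 0.023) these ranges were 0.033 to 0.062, 0.15 to 0.17, 0.19 to 0.22 and -0.13 to -0.089. With median of ratios size factors, Mnt had 0.19 from NC to NPC, 0.23 from WT to NPC and -0.15 for the difference of steps. With library size set to the table's summed counts, Mnt had 0.0080 from WT to NC, 0.17 from WT to NPC and -0.15 for the difference of steps; the cause was not tested.

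Counts of genes past the threshold stayed within 1.5 times for NC against WT (23 to 34 without a library) and NPC against WT (35 to 45). For NPC against NC, 9 genes passed, 4 with NC replicates 2 and 3 averaged, and 3 to 15 without a library (3 without NC replicate 2 or NPC replicate 3, 4 without NPC replicate 2, 15 without NPC replicate 1). In NPC against WT 21 genes were higher and 19 lower, against 18 and 26 with summed counts as library size. Of the 6 Myc-responsive genes, 3 or 4 passed from WT to NC, 1 from NC to NPC and 3 or 4 from WT to NPC under all 21. Of the other tested genes with a transcription-factor family entry, 0 passed from WT to NC. With median of ratios, with summed counts or with only the 2 groups compared, 1 passed (Tfe3), and 0 to 1 without a library. From WT to NPC 1 passed, and 0 at the 5 FPKM filter, which removes Tfe3.

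Replicate numbers did not pair the libraries: of 9 same-numbered pairs, 3 had residual correlations above 0.1 (range -0.30 to 0.29). With the replicate number as a block, Klf6 had 0.32 and -0.0088 and Mnt 0.049 and 0.16 at the 2 steps, with 31, 9 and 40 genes past the threshold in the 3 comparisons. At 4 counts per fragment, counting error would be 3.28% for Mnt in NC, above the observed 1.36%, so that scale is uncertain.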
